A study of Mus musculus with 36 samples.

Results

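The CTCF-free stretches described here are long intervals of mouse chromosomes 1 to 19 with no CTCF peak in embryonic stem cells on any of 4 days. They were chosen by the positions of the authors' CTCF peaks alone: the 4 CTCF peak lists were merged into 52276 sites on chromosomes 1 to 19, and a gap of 300 kb or more between neighbouring sites was kept as a stretch. This gave 1095 stretches of 52257 gaps (2.10%). The gap before the first site and the gap after the last site of each chromosome were left out. The lengths of the stretches, their number and their lack of CTCF are set by this rule and are given as a description.

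The series covers cultured mouse embryonic stem cells and has 36 samples, 3 in each of 12 groups, namely chromatin immunoprecipitated with an antibody to CTCF, with an antibody to MBD3, and input chromatin, each on days 0, 2, 4 and 6. The names of the peak lists mark the cells as WT, the labels name no drug for any group, and the culture described for all of them used serum replacement with leukaemia inhibitory factor on irradiated fibroblast feeders. What was done to the cells between the days is not stated. Each deposited list of peaks pools the 3 replicates of an antibody and day, so no value below has a spread between replicates. No test was made. The intervals of shares are exact 95% binomial intervals that cover counting error only. They treat the genes or sites counted as independent, which neighbouring genes of a tandem family are not.

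CTCF is a zinc finger protein that stops cohesin as it extrudes DNA, and pairs of bound sites hold the ends of chromatin loops and insulate neighbouring genes from each other's enhancers. MBD3 is a subunit of NuRD, a complex that moves nucleosomes and removes acetyl groups from histones. Many of the tandem gene families of the mouse, above all the receptors for odours and pheromones, are switched on in a few specialised cell types and are silent in stem cells.

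The sequences below show what the promoters in the stretches look like: a receptor gene, a neuronal gene of the longest stretch, and the 4 protein-coding genes whose promoter window lay under an MBD3 site inside a stretch. They are RefSeq windows of GRCm38.p6 (the assembly of mm10), from 250 bases before to 50 bases after the annotated start, on the strand of the gene and written 5′ to 3′, and each CG dinucleotide is in capitals. Olfr1015, an olfactory receptor gene, lies in a stretch of chromosome 2 with 44 such genes (window at chr2:85785224-85785523, plus strand). It is the first receptor there in order of position whose annotated start is not an ATG codon.
Olfr1015: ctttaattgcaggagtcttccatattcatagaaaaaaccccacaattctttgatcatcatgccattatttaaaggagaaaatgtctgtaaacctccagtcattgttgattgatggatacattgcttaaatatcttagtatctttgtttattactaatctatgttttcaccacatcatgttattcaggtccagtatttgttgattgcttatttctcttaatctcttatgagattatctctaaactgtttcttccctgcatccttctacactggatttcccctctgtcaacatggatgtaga
Slitrk1 encodes a transmembrane protein of neurons that controls the outgrowth of neurites, and it lies in the longest stretch of chromosomes 1 to 19 (chr14:108914190-108914489, minus strand).
Slitrk1: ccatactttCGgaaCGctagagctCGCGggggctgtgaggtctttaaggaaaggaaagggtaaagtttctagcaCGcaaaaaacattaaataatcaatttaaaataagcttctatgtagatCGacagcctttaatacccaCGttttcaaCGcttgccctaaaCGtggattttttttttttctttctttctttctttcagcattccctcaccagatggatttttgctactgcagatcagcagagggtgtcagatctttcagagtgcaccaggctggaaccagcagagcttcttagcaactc
Lrrc3b, which encodes a leucine-rich repeat membrane protein (chr14:15438938-15439237, minus strand), and Fam205a3 (chr4:42294275-42294574, plus strand) lie wholly inside a stretch.
Lrrc3b: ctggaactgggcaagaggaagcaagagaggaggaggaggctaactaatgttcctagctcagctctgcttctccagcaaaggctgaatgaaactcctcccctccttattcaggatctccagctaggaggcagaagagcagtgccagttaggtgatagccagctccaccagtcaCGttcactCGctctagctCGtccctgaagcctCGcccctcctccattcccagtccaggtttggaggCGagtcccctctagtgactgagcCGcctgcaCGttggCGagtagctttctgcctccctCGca
Fam205a3: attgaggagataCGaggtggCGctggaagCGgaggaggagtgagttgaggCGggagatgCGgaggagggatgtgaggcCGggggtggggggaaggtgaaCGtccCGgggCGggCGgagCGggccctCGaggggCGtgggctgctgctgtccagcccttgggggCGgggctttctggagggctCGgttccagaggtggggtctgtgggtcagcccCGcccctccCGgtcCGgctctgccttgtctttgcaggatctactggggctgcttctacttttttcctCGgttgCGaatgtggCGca
Snx7, a sorting nexin gene (chr3:117868887-117869186, minus strand), and Vav3, the gene of a guanine nucleotide exchange factor (chr3:109340433-109340732, plus strand), have their promoter window in a stretch and their other end beyond it.
Snx7: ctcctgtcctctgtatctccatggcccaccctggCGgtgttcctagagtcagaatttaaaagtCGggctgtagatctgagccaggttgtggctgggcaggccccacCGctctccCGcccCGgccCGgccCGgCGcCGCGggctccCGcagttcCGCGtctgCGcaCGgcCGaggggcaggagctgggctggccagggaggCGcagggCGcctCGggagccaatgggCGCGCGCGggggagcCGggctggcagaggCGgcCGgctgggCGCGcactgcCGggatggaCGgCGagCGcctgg
Vav3: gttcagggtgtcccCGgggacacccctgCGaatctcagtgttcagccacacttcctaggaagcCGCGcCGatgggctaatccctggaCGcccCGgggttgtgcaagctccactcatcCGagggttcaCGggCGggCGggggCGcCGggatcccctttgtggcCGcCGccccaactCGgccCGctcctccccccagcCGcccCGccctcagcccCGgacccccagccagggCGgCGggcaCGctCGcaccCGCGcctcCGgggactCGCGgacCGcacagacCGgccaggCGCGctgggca

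The windows of Olfr1015 and Slitrk1 had 0 and 9 CG dinucleotides in 300 bases. Those of Lrrc3b, Fam205a3, Snx7 and Vav3 had 9, 21, 32 and 33. Vav3 has a second window that overlapped the same MBD3 site (chr3:109340511-109340810, not printed), with 40. The windows of these 4 genes therefore ran from few to many, with the fewest at Lrrc3b. The Lrrc3b window overlapped its MBD3 site (15438552 to 15438946) only at the end downstream of the annotated start. All MBD3 peaks of the 4 genes' windows were found on day 4 only. The authors' fold enrichments were 2.90 for Lrrc3b, 3.41 for Fam205a3, 2.49 for Snx7 and 3.64 for Vav3. Fold enrichment is the peak caller's ratio of fragments to the expected background at a peak's summit, and it is used below only to describe and rank peaks.

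A second kind of sequence that the stretches hold is the miR-344 cluster, shown because it has the most microRNA genes of any stretch. Its 13 hairpins lie on the minus strand of chromosome 7 between 61683124 and 62085310 (mm10), inside a stretch of 1.45 Mb. The nearest protein-coding genes beyond its ends are the imprinted genes Snrpn on the left and Ndn on the right. RefSeq gives 19 mature sequences for them. The 8 from the 3′ arm are written below with the seed, bases 2 to 8, in capitals.
miR-344-3p: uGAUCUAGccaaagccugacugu
miR-344c-3p: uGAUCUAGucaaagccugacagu
miR-344d-3p: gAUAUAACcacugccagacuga
miR-344e-3p: gAUAUAACcaaagccugacuau
miR-344h-3p: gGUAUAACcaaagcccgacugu
miR-344b-3p: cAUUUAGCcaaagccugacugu
miR-344f-3p: cUCUAGCCaggaccugacuac
miR-344g-3p: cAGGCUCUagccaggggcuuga
By seed, miR-344-3p and miR-344c-3p form a pair, miR-344d-3p and miR-344e-3p form another, and the rest have a seed of their own. On the 5′ arm the seed GUCAGGC recurred in 6 mature sequences of the cluster. Over all 19 there were 11 seeds. Stretches on chromosome 16 and chromosome 13 held better known microRNAs. Mir99a, Mirlet7c-1 and Mir125b-2 lay together at 77598936 to 77646343 of chromosome 16, and Mir9-2, whose product acts in neural progenitors, lay at 83738814 to 83738885 of chromosome 13.
miR-99a-5p: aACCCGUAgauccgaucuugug
let-7c-5p: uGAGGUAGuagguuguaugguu
miR-125b-5p: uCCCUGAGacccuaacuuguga
miR-9-5p: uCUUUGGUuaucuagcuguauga

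The stretches summed to 637.8 Mb, or 26.6% of the 2399.9 Mb between the first and the last CTCF site of the 19 chromosomes. Their median length was 470.9 kb, with quartiles of 361.6 and 657.3 kb, against a median of 17.5 kb over all gaps. Of the 1095, 484 reached 500 kb, 98 reached 1 Mb and 16 reached 2 Mb. The shortest 3 stretches were 300242, 300427 and 300786 bp long and lay on chromosomes 10, 6 and 2. The 3 gaps just under the limit were 299713, 299407 and 299090 bp long and lay on chromosomes 17, 19 and 14, so nothing in the lengths sets the limit apart.

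**Figure D1:**
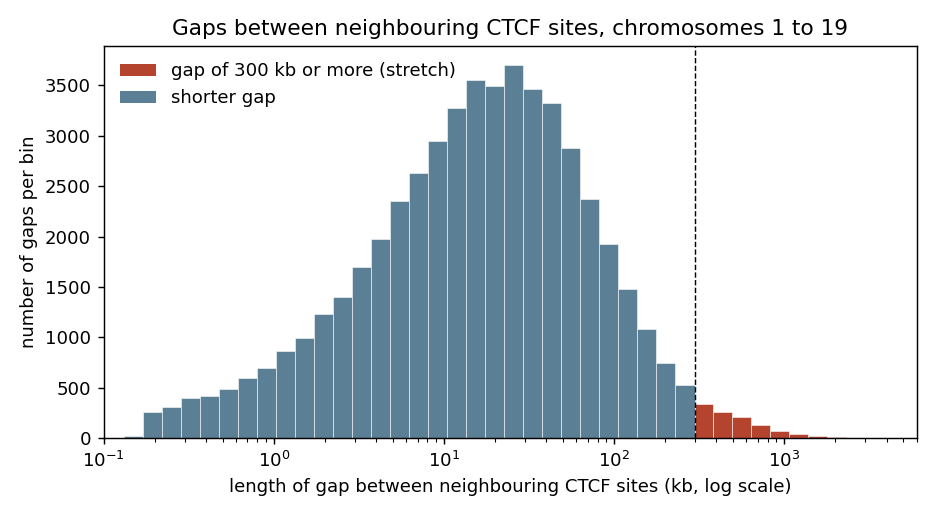
Number of gaps between neighbouring CTCF sites by length in kb (log scale), with gaps of 300 kb or more in red and shorter gaps in blue; the dashed line marks 300 kb. The stretches are the right tail of a continuous distribution whose median is 17.5 kb.

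Chromosomes differed in how much of them lay in stretches. Chromosome 3 had 108 stretches that took 38.4% of its span, and chromosome 1 had 97 that took 32.2%. At the other end, chromosome 11 had 31 stretches over 14.6% of its span and chromosome 19 had 22 over 19.7%. Chromosome 3 also had the fewest CTCF sites per Mb (16.3) and chromosome 11 the most (31.3), which the rule links to the share in stretches.

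**Figure D2:**
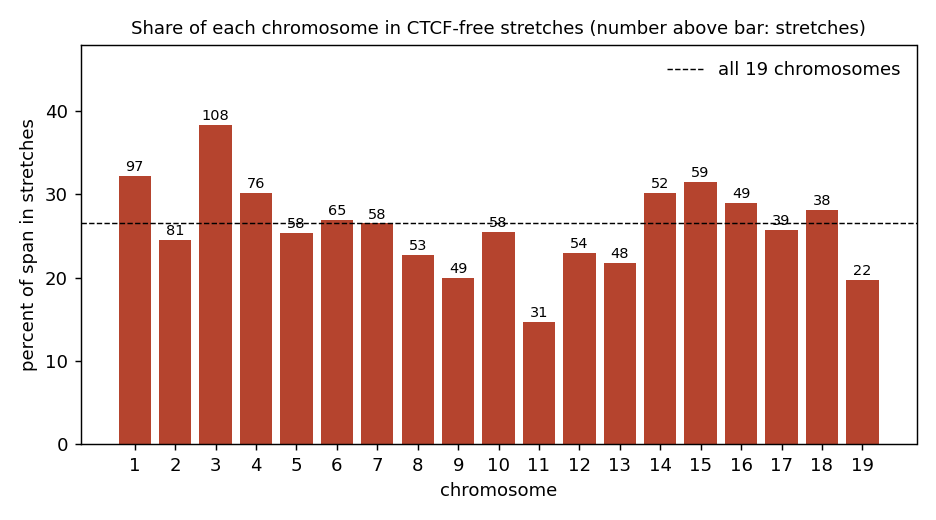
Percent of each chromosome's span, from its first to its last CTCF site, that lay in stretches; the number above a bar counts its stretches and the dashed line is the value over all 19 chromosomes (26.6%). Chromosome 3 stands highest at 38.4% and chromosome 11 lowest at 14.6%.

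Stretches often followed each other with only 1 CTCF site between them. In 186 runs of at least 2 neighbours lay 457 of the stretches, and 55 runs had at least 3. The run with most members had 6 stretches in 4.03 Mb of chromosome 4, from 35418230 to 39449796. It held no whole protein-coding gene, and Lingo2, which encodes a leucine-rich repeat protein of neurons and is 1255 kb long, ran over 1 of its stretches.

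Chemosensory receptor genes made up most of the protein-coding content of the stretches. Wholly inside a stretch lay 1636 of 20665 protein-coding genes of RefSeq on these chromosomes, 7.92% (95% interval 7.55 to 8.29%). Of those 1636, 934 (57.1%) were receptors of the olfactory, vomeronasal, formyl peptide and bitter taste families. Together with the trace amine receptors, of which none lay inside, these families are counted here as chemosensory. Chemosensory genes made up 3.11% of the protein-coding genes that lay wholly outside stretches. The genes inside were short, with a median length of 1.33 kb against 18.6 kb outside.

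By density the stretches were poor in protein-coding genes. They held 2.57 genes per Mb against 10.5 per Mb in the rest of the span, a ratio of 0.245 (interval 0.232 to 0.257 from the counts). Without the chemosensory genes the densities were 1.10 and 10.2 per Mb, a ratio of 0.108. A gene with a CTCF peak in it cannot lie in a stretch, so the rule itself bears on this ratio, and how much of it the rule sets was not tested. Reads from near-identical copies are hard to place, and how far this thinned the peaks in tandem families was not tested, since mappability was not analysed here.

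Genes were unevenly spread over the stretches. A whole protein-coding gene lay in 286 stretches (26.1%), exactly 1 gene lay in 140, and 50 stretches with 10 or more genes held 1094 of the 1636 (66.9%). Of those 50, 40 had a chemosensory receptor gene. No whole gene but a gene longer than the stretch ran over 91 others, and a further 271 had only the end of a gene in them. In 447 stretches, together 255.8 Mb, no protein-coding gene overlapped at all.

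The share of stretches with a whole protein-coding gene was 22.6% among the 611 of 300 to 500 kb (interval 19.3 to 26.1%), 28.8% among the 386 of 500 kb to 1 Mb and 35.4% among the 82 of 1 to 2 Mb. It was 8 of 16 among those of 2 Mb or more (interval 24.7 to 75.3%). A longer stretch has more room for a gene, and per Mb no such order was seen: the classes from short to long held 2.32, 3.06, 1.80 and 2.91 genes per Mb.

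Olfactory receptors are the odour detectors of the nose, and 664 of their 1104 genes (60.1%, interval 57.2 to 63.0%) lay in 34 stretches. Chromosome 2 had 251 of its 287 inside (87.5%), and chromosome 9 had 106 of its 130 (81.5%). Chromosome 7 was lower, with 125 of 239 (52.3%), and on chromosome 11 27 of 83 lay inside (32.5%). Clusters on chromosomes 4, 8 and 15 had none of 24, 5 and 9. The odour receptor genes thus differed by chromosome, from most of them to none.

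Vomeronasal receptors detect pheromones. The type 1 family had 164 of 233 genes inside (70.4%, interval 64.1 to 76.2%) in 12 stretches, 108 of them among the 127 of chromosome 7. The type 2 family had 77 of 123 inside (62.6%, 53.4 to 71.2%), 40 of them on chromosome 7 and 24 on chromosome 17. Formyl peptide receptors, which act in immune cells and partly in the vomeronasal organ, had 4 of 7 inside. Bitter taste receptors had 25 of 35 inside (71.4%), all on chromosome 6. None of the 15 trace amine receptors, which also detect odours, lay in a stretch.

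The 5 stretches with most genes were all receptor clusters. The first, on chromosome 7 from 20859753 to 23325112 and 2.47 Mb long, held 61 protein-coding genes, 49 of them vomeronasal type 1 receptors such as Vmn1r116, Vmn1r117 and Vmn1r118. Chromosome 2 had 3 of the 5: 85726197 to 86464725 with 44 genes from Olfr1012 onwards, 88356605 to 89279795 with 40 genes from Olfr1178 onwards, and 87482648 to 88241602 with 39 genes, of which 37 were olfactory receptors and the others Pramel6 and Pramel7. The other lay on chromosome 10 at 129026434 to 129877739 with 43 genes from Olfr765 onwards. No CTCF peak of any day lay between the genes of a cluster there, which is what the rule selects.

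Other tandem families also lay in stretches at shares above the 7.92% of all protein-coding genes. Prolactin and its relatives, hormones of the pituitary and the placenta, had 23 of 26 members inside (88.5%, interval 69.8 to 97.6%), among them Prl, Prl3d1, Prl3d2 and Prl3d3. Secretoglobins and androgen-binding proteins, which are secreted into saliva and tears, had 28 of 40 inside (70.0%), and exocrine gland-secreted peptides, pheromones of tears, had 9 of 15. Lectin-like receptors of natural killer cells had 19 of 37 inside, all in 1 stretch of chromosome 6 with Klrd1, Klrk1, Klrc3 and Klrc2. Their intervals all lay above 7.92%, but they count neighbouring genes as independent. The members inside lay in 3 stretches for prolactins, 2 for secretoglobins, 3 for exocrine gland-secreted peptides and 1 for the lectin-like receptors. The intervals are therefore too narrow as a measure of how sure these shares are.

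Shares were lower for defensins, the antimicrobial peptides of the gut, with 17 of 71 inside, all in 1 stretch with Defa38, Defa30, Defa22 and Defa31. Major urinary proteins, which carry pheromones, had 6 of 22 inside, Speer genes had 4 of 10, serpins 12 of 62, cytochrome P450 genes 17 of 98, sulfotransferases 4 of 21 and pregnancy-specific and CEA glycoproteins 5 of 28. For the zinc finger genes named Zfp the 24 of 388 inside (6.19%, interval 4.00 to 9.06%) were close to the share of all genes, and for keratins and keratin-associated proteins it was 5 of 109.

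Several families had no member whole inside a stretch. This was so for 80 histone genes (upper limit 4.51%), 76 ribosomal protein genes (4.74%), 41 Fox genes (8.60%), 39 Hox genes (9.03%), 18 Sox genes, 14 Eph receptors and 6 Irx genes. With the smaller families the upper limit is above 7.92%, so a share like that of all genes cannot be told from 0 there. Of the 46 families counted, 28 had a member inside and 18 had none.

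**Figure D3:**
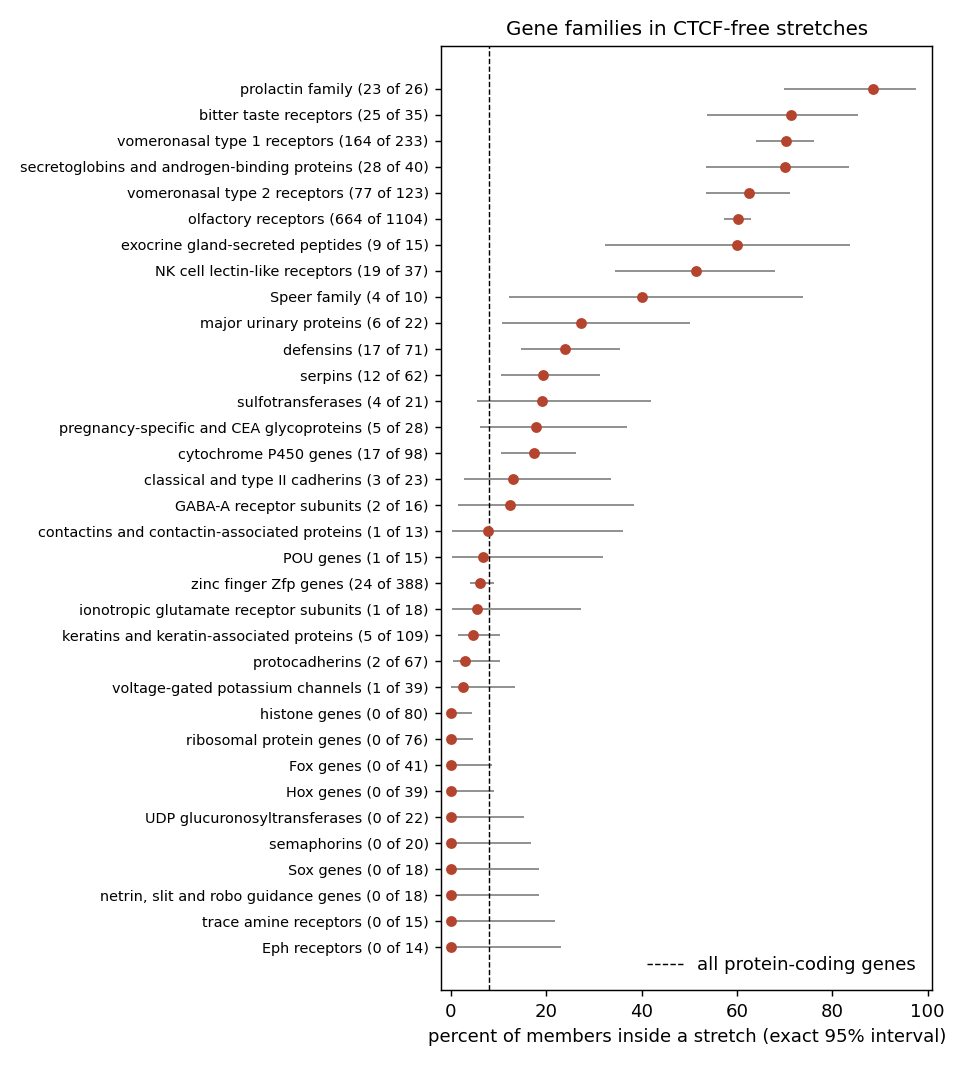
Percent of each family's protein-coding members that lay wholly inside a stretch (points) with exact 95% binomial intervals (lines), for families of 10 or more members; counts stand beside the names and the dashed line is the 7.92% of all protein-coding genes. Prolactins stand highest at 88.5% and olfactory receptors at 60.1%, and histone, ribosomal protein, Hox and Fox genes at 0.

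Families with members in neurons had from none to most of their genes inside, but most of them cannot be told from the 7.92% of all protein-coding genes. The Slitrk family, whose members shape synapses and neurites, had 3 of 4 genes inside: Slitrk1, Slitrk6 and Slitrk5. Classical and type II cadherins had Cdh9, Cdh8 and Cdh19 of 23 inside (interval 2.78 to 33.6%) and 7 more that ran over an edge or a whole stretch. Protocadherins had 2 of 67 inside (0.364 to 10.4%) and voltage-gated potassium channels 1 of 39 (0.0649 to 13.5%). Semaphorins had 0 of 20 (upper limit 16.8%) and the netrin, slit and robo guidance genes 0 of 18 (18.5%). Of the families in this paragraph up to here, only Slitrk had an interval (19.4 to 99.4%) that leaves out 7.92%, and its 3 genes lay in 2 stretches. Regulators inside included Pou4f1, a transcription factor of sensory neurons and the only 1 of 15 POU genes, and Zfhx4.

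A stretch could also lie within a single gene. Of the 533 protein-coding genes of 300 kb or more, 86 (16.1%) spanned a whole stretch, and together they covered 94 stretches. Among the 55 genes of 1 Mb or more it was 37. Cntnap2, a contactin-associated protein of axons, is 2241 kb long and held 2 stretches of 1392 kb in sum, which is 62.1% of the gene, beside 10 CTCF sites. Macrod2, the gene of an ADP-ribose hydrolase, is 1998 kb long and held 2 that took 58.0% of it.

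The longest spanning gene, Ptprd, a receptor phosphatase of synapses, is 2271 kb long and held 1 stretch over 25.4% of its length. The others of the 10 longest were Lsamp (15.0% of its length), Lrp1b (40.9%), Dlg2 (36.0%), Csmd1 (27.4%), Nrxn3 (32.2%), Fhit (22.8%) and Ctnna3 (41.1%). Of the spanning genes of 1000 kb or more, Dcc, a receptor of the guidance cue netrin, had the largest share of its length in stretches, 85.6% of 1098 kb. Of these 10, Lsamp, Nrxn3, Dlg2 and Ctnna3 are among those that encode proteins of synapses or cell adhesion, while others such as Fhit do not. Of the 86, 24 belong to the families counted here. The share of these families among all 533 genes of 300 kb or more was not counted, so no theme of the spanning genes is read from this. A gene must be longer than 300 kb to span a stretch, so the rule limits this set to long genes. An end of 370 protein-coding genes lay in a stretch, some of which also span another one. Among the 370 are Robo2, a receptor of axon guidance, and Rbfox1, a splicing factor of neurons.

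The longest stretch, 3.98 Mb on chromosome 14 from 107166463 to 111144152, held Slitrk1 and Slitrk6 and 14 pseudogenes. Its left flanking CTCF site was found on day 0 only (fold 3.62) and its right one on day 4 only (3.80), so both ends rest on weak peaks of 1 day. The second, 3.06 Mb on chromosome 7 from 7299794 to 10354799, held 25 protein-coding genes, of which 23 were vomeronasal type 2 receptors from Vmn2r30 to Vmn2r52, and reached into Clcn4, a chloride and proton exchanger. Its left flank was found on all 4 days with folds of 12.5, 6.04, 10.8 and 10.5.

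The third, 2.58 Mb on chromosome 14 from 93898803 to 96482225, held Spertl and an end of Klhl1, a neuronal kelch protein, and began 5968 bp from Pcdh9. The fourth, 2.51 Mb on chromosome 16 from 81463058 to 83974331, held 5 pseudogenes, no whole protein-coding gene and an end of Ncam2, a neural adhesion molecule. The fifth is the vomeronasal stretch of 61 genes described above. The sixth, 2.31 Mb on chromosome 4 from 78212238 to 80517333, touched no protein-coding gene and began 495 bp from Ptprd. Both of its flanks were found on all 4 days, with folds of 11.9, 3.73, 6.53 and 4.80 on the left and 9.25, 4.81, 5.43 and 6.69 on the right.

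The seventh and the eighth lay on chromosome 1 at 48708954 to 50927048 (2.22 Mb) and at 107823532 to 109985540 (2.16 Mb), and of protein-coding genes they held only an end of Tmeff2 and an end of Cdh7. They also held 9 and 6 pseudogenes. The ninth, 2.13 Mb on chromosome 14 from 112432256 to 114566591, touched no protein-coding gene and had flanks found on day 0 only, each with a fold of 2.85. The tenth, 2.13 Mb on chromosome 2 from 80878715 to 83010961, held Zfp804a, a zinc finger gene, and Fsip2, the gene of a protein of the sperm tail. Of the 10 longest, 3 lay on chromosome 14.

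No annotated gene of any kind touched 36 stretches, which together took 14.9 Mb. The 3 longest of them were 684.6 kb on chromosome 8 from 73882008 to 74566612, 632.1 kb on chromosome 2 from 97965487 to 98597617 and 570.2 kb on chromosome 5 from 46444194 to 47014441. The nearest protein-coding gene lay 306561 bp away for the first (Isx), 333814 bp away for the second (Lrrc4c) and 586358 bp away for the third (Lcorl). Runs of undetermined bases in the assembly were not analysed here.

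The density of other gene classes inside and outside the stretches differed by class. Pseudogenes, copies of genes that no longer make a full protein, were about as dense inside as outside, with 3.68 and 3.87 per Mb (2348 of 9320 inside, 25.2%). For small nucleolar RNA genes it was 0.497 and 0.543 per Mb (24.7% inside). Long noncoding RNA genes stood at 1.74 and 6.27 per Mb (8.95% inside), and tRNA genes at 0.0157 and 0.213 per Mb (10 of 391 inside). Receptor families contributed 352 of the pseudogenes inside.

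MicroRNA genes numbered 64 of 1136 inside (5.63%) in 43 stretches, and 13 of the 64 were the miR-344 hairpins shown above. Variable segments of the antigen receptors, which RefSeq does not class as protein-coding, numbered 60 of 394 inside (15.2%): 35 of the 102 of the kappa light chain locus (Igk), 18 of the 120 of the heavy chain locus (Igh), 5 of 22 of Trb and 2 of 3 of Igl. None of the 114 of Tra lay in a stretch.

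Promoters in the stretches were poor in CG dinucleotides. The rule did not use this measure, but a gene with a CTCF peak at its promoter cannot lie in a stretch. How far that shaped the differences below was not tested. A RefSeq promoter window was at hand for 1385 of the 1636 genes inside and for 14722 of the 18481 wholly outside. Chemosensory genes inside had a median of 1 CG in 300 bases, the other genes inside had 2, and genes outside had 16. With CG-rich defined as a GC content of 50% or more and an observed-to-expected CG ratio of 0.6 or more, 0 of 813, 57 of 572 (9.97%, interval 7.64 to 12.7%) and 7568 of 14722 (51.4%, 50.6 to 52.2%) windows were CG-rich in these groups.

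The annotated start of many receptor genes is the ATG codon of the protein, so that the window is not the true promoter. That was so for 78.8% of the chemosensory genes inside, 12.8% of the other genes inside and 5.16% of genes outside. With those genes left out the medians were 1, 2 and 17 CG dinucleotides. Chemosensory genes outside stretches had a median of 1 as well, so this feature goes with the family, inside or outside. Genes not wholly inside whose promoter window overlapped a stretch had a median of 11, between the groups, and 59 of 150 (39.3%) were CG-rich.

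The 57 CG-rich genes inside included regulators of development and widely used genes. Highest was Pou4f1 with 57 CG dinucleotides, followed by Mzt1 with 51, whose product acts at microtubule-organising centres, and Glcci1 with 50. Isl1, a transcription factor of motor neurons and the heart, had 37, and Tcf12, a basic helix-loop-helix factor, had 41. CG-rich promoters without a CTCF peak within the stretch on any day did therefore occur.

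**Figure D4:**
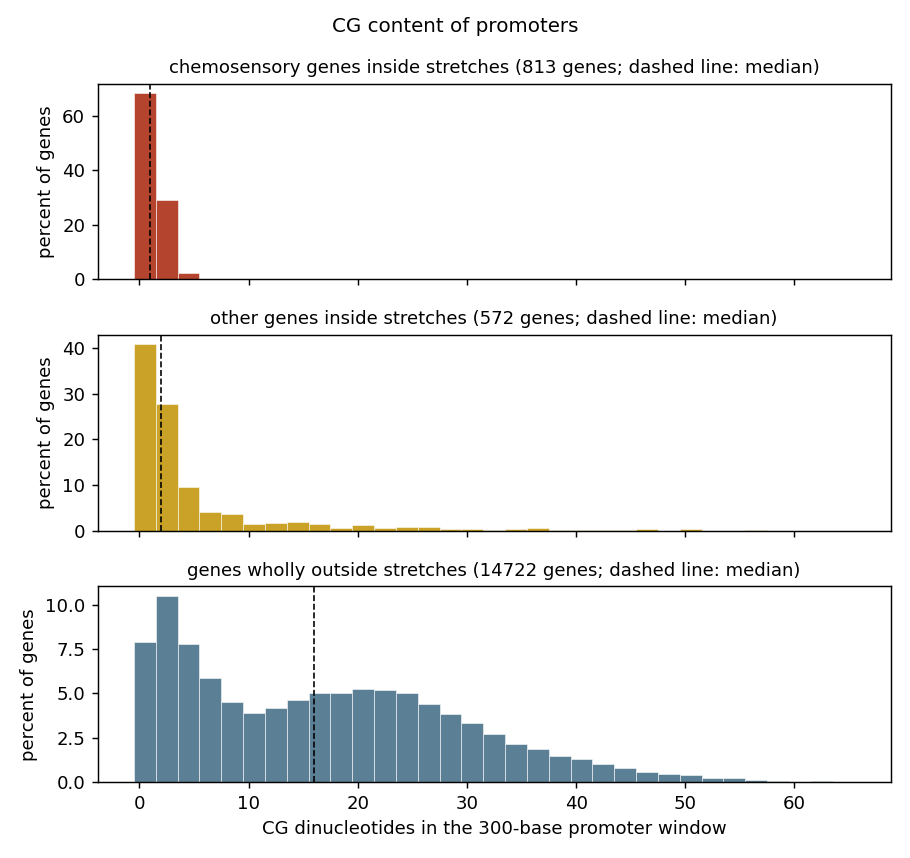
Percent of genes by number of CG dinucleotides in the 300-base promoter window, for chemosensory genes inside stretches (top), other genes inside stretches (middle) and genes wholly outside (bottom); the panels have different vertical scales and dashed lines mark medians of 1, 2 and 16. Chemosensory windows stay at the left edge, and the genes outside have a broad second mode at higher counts.

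The CTCF sites that flank the stretches were less regular over the days than the other sites. Of 1919 flanking sites, 730 (38.0%, interval 35.9 to 40.3%) had a peak on all 4 days, against 47.9% (47.5 to 48.4%) of the 50357 other sites and 47.6% of all sites. A peak on 1 day only was found at 34.9% of flanking sites and 28.7% of other sites. The share with a peak was 77.3%, 45.1%, 67.6% and 66.0% of flanking sites on days 0, 2, 4 and 6, against 88.8%, 52.7%, 68.2% and 70.9% of the others. Day 4 had the smallest difference.

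The median of each site's highest fold was 7.19 at flanking sites and 7.80 at the others, with quartiles of 4.61 and 11.7 against 4.40 and 13.0, so the ranges overlapped widely. Both flanks had a peak on all 4 days in 157 stretches, and both had a peak on 1 day only in 149. MBD3 overlapped 16.5% of flanking sites (14.9 to 18.3%), against 30.1% of the others and 29.6% of all sites. Since a weak peak of 1 day can cut a longer gap in pieces, and flanks were picked by the distance to the next peak, these values describe the choice as well as the sites.

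The strongest flanking site by fold lay in Lsamp on chromosome 16 (42164934 to 42165501) with folds of 19.8, 32.5, 30.3 and 48.2 on days 0, 2, 4 and 6. The next lay in Pdzrn4 on chromosome 15 (92526707 to 92527164) with folds of 44.5, 13.0, 12.0 and 11.7. The last of the 3 lay 92864 bp from Mctp2 on chromosome 7 (72399980 to 72400422) with folds of 23.4, 7.53, 14.4 and 36.8. All 3 had a peak on every day, with the highest fold on day 6 in Lsamp and near Mctp2 and on day 0 in Pdzrn4.

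Taken by day, the CTCF lists left more and longer gaps than their union. Days 0, 2, 4 and 6 had 46230, 27549, 35839 and 37078 CTCF peaks and 1208, 1425, 1283 and 1242 gaps of 300 kb or more of their own. These gaps summed to 761.3, 989.2, 825.6 and 817.1 Mb. All 1095 stretches are by construction part of such a gap on each day. The day's own gap had the same ends for 164 stretches on day 0, for 7 on day 2, for 62 on day 4 and for 107 by day 6. On each day most stretches were thus shorter than the gap they lay in.

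MBD3 was found in few stretches. The 4 MBD3 lists merged into 18001 sites, of which 279 overlapped a stretch, and 34 of these also touched the flanking CTCF site. The other 245 lay off CTCF and made up 10.2% (interval 9.01 to 11.5%) of the 2405 MBD3 sites without CTCF. That is 0.384 per Mb of stretch against 1.23 per Mb elsewhere, a ratio of 0.313 (interval 0.274 to 0.358 from the counts). They were spread over 210 stretches (19.2%), 180 of which had 1 site and none of which had more than 3. The median site lay 114.2 kb from the nearest CTCF site.

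MBD3 sites per Mb were fewer in longer stretches: 0.509 in those of 300 to 500 kb, 0.360 in those of 500 kb to 1 Mb, 0.265 in those of 1 to 2 Mb and 0.131 in those of 2 Mb or more. The longest class rests on 5 sites. Of the 57 stretches with a chemosensory receptor gene, 14 had an MBD3 site, against 210 of all 1095 stretches (19.2%). No difference is read from these counts.

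Pseudogenes carried most of the strongest MBD3 peaks of the stretches. Of the 245 sites inside, 76 (31.0%, interval 25.3 to 37.2%) overlapped a pseudogene, 43 (17.6%) a protein-coding gene, 11 a long noncoding RNA gene and 115 (46.9%) no gene. Of the MBD3 sites without CTCF outside stretches, 15.9% were classed as on a pseudogene and 53.7% as on a protein-coding gene, and 17.4% of all 2405 overlapped a pseudogene. Of the annotated pseudogenes, 67 of 2348 inside (2.85%, 2.22 to 3.61%) and 332 of 6823 outside (4.87%, 4.37 to 5.40%) had such a site, 4.35% of both together.

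The share of MBD3 peaks on pseudogenes differed between days, inside the stretches and outside them. The stretches held 121, 86, 114 and 82 MBD3 peaks off CTCF on days 0, 2, 4 and 6, which is 1.18%, 4.49%, 1.29% and 0.768% of each day's list. On a pseudogene lay 24 of 121 (19.8%), 65 of 86 (75.6%), 43 of 114 (37.7%) and 61 of 82 (74.4%). Of the MBD3 peaks off CTCF outside stretches it was 11.5%, 36.8%, 23.2% and 39.0%, again lowest on day 0 and next lowest on day 4. Of the 76 pseudogene sites, 53 had no peak on day 0, and 19 had a peak on every day. Of the 169 other sites, 145 were found on 1 day only.

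The median fold of the pseudogene peaks was 2.34, 7.23, 8.09 and 8.75 on days 0, 2, 4 and 6, and that of the other peaks inside was 3.57, 4.40, 3.41 and 4.47. On day 0 the pseudogene peaks were thus the lower group and on the other days the higher. From the fold and the p-value of each peak the number of fragments at the summit and the expected background can be worked out, which matched within 0.1% for 398 of 403 peaks. The 24 pseudogene peaks of day 0 had a median of 127 fragments over a background of 54.8, and on days 2, 4 and 6 the medians were 40.0, 48.5 and 30.0 fragments over backgrounds of 3.09, 4.31 and 2.25. Peaks elsewhere in the stretches had backgrounds of 3.80, 2.75, 4.31 and 2.04. At pseudogenes the background was thus high on day 0, where the fold was low, and low on the later days, where the fold was higher. The fragments at the summit were also fewer on the later days. The part of the background in the difference of fold was not tested.

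**Figure D5:**
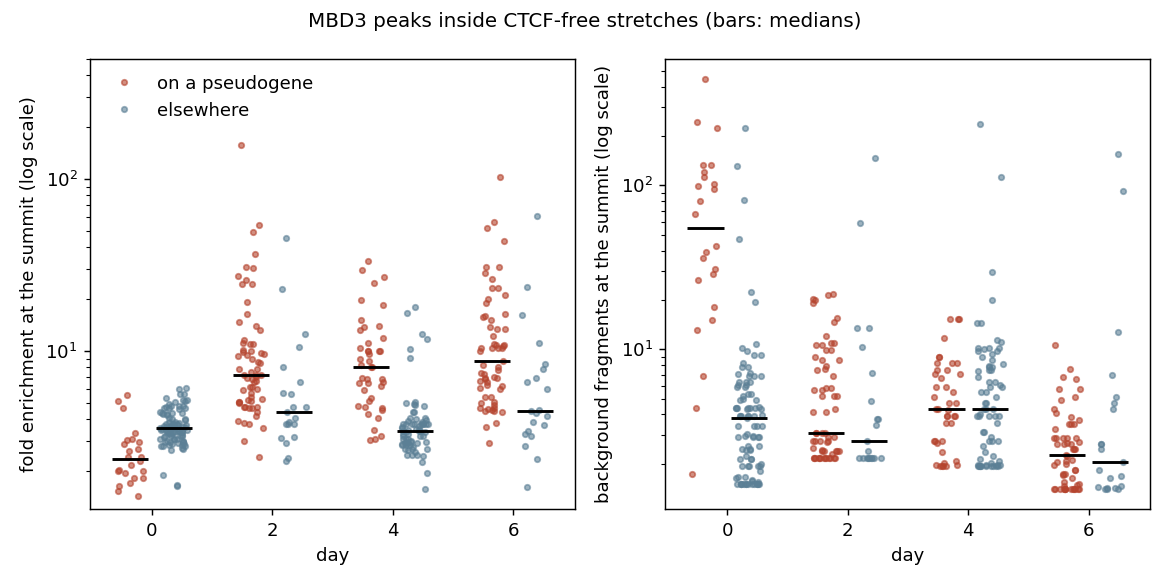
MBD3 peaks inside stretches by day, with peaks on pseudogenes in red and peaks elsewhere in blue: the authors' fold enrichment (left, log scale) and the background fragments worked out from it (right, log scale, 398 peaks); bars are medians. On day 0 the pseudogene peaks have a low fold (median 2.34) and a high background (median 54.8), and on days 2, 4 and 6 a higher fold and a background like that of the other peaks.

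The strongest MBD3 site of the stretches lay on the pseudogene Gm6863 on chromosome 12 (96922410 to 96923058), in a stretch of 683.8 kb. It had no peak on day 0 and folds of 157, 33.1 and 103 on days 2, 4 and 6. Gm5835 on chromosome 1 (143093350 to 143094621) had folds of 2.69, 54.2, 26.9 and 56.3 on days 0, 2, 4 and 6. At its summit on day 0 were 304 fragments over a background of 113, and on day 2 there were 202 over 2.75.

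Rps18-ps6, by its name a copy of the gene of ribosomal protein S18, lies on chromosome 13 (97760248 to 97760635) and had folds of 1.99, 48.9, 19.7 and 51.6. Gm15459 on chromosome 5 (5781607 to 5783637) had 1.70, 36.8, 29.6 and 43.5. Gm8355 on chromosome 10 had 2.17, 30.3, 13.8 and 30.9. These sites share a low fold or no peak on day 0 and a lower fold on day 4 than on days 2 and 6. Where there was a peak on day 0, it was low in fold and not in fragments. Rps18-ps6 had 888 fragments over a background of 446 that day, and Gm15459 had 381 over 224.

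Of the 15 repeated sites of highest fold, 13 lay on pseudogenes, among them Eef1a1-ps1 (25.7, 11.1 and 26.2 on days 2, 4 and 6), named for a translation elongation factor gene, and Rpl17-ps10 (11.6, 15.1 and 23.2). The further ones on pseudogenes were Gm15427, Gm8730, Gm9892, Gm6767, Gm13456 and Rps3a2, with highest folds of 30.8, 28.5, 27.3, 21.1, 18.9 and 16.4. Of the pseudogenes inside stretches with an MBD3 site, 10 have a symbol that begins with Rpl or Rps, as do 38 of all 2348 inside.

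The 2 that lay on no pseudogene were within the ends of Macrod2 on chromosome 2 (140955857 to 140956182), with folds of 45.0, 18.1 and 60.9 on days 2, 4 and 6, and in Gm15501 on chromosome 7, with 1.91, 22.9, 16.5 and 23.5. Whether these sites fall in an exon or an intron was not looked up. Of days 2, 4 and 6, both had their lowest fold on day 4.

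Peaks of high fold were absent from the stretches on day 0. The highest fold there was 6.05, at a place 187211 bp from Cxxc4 on chromosome 3, followed by 5.99 at a place 1972022 bp from Celf4 and 5.59 at a place 75872 bp from Shisa9 on chromosome 16, each found on day 0 only. A peak 254344 bp from Nyap2 on chromosome 1 had the same fold as the one near Shisa9. By −log10 q other peaks of day 0 led, with 89.2 for a peak on chromosome 3 that overlapped no gene (fold 2.66, 595 fragments over a background of 223) and 70.6 for Rps18-ps6 (888 fragments over 446). A fold of 10 or more was reached by 0 of 121, 25 of 86, 18 of 114 and 33 of 82 peaks inside on days 0, 2, 4 and 6. This count was not made outside the stretches, so the absence on day 0 cannot be called particular to them. The median fold was lowest on day 0 both inside (3.40, 6.78, 3.88 and 7.41 by day) and for peaks off CTCF outside (3.16, 4.49, 3.59 and 5.12).

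Protein-coding genes inside stretches seldom had MBD3. A site lay within 13 of the 1636 (0.795%), against 30.0% of all 20665 protein-coding genes. The count over all genes includes MBD3 sites on CTCF sites, which the genes inside cannot have. The genes inside were also shorter, with a median of 1.33 kb against 18.6 kb outside, and a longer gene has more room for a site. These shares therefore do not compare like with like. How far gene length and sites on CTCF make up the difference was not tested. The 13 include Kitl, which encodes stem cell factor, the ligand of the KIT receptor (fold 3.75), Eya1, a developmental transcription cofactor (2.67), and Nova1, a splicing factor of neurons (3.87), all on day 4 only, and Sntg1 on day 0 only (3.40). None of the 13 is a chemosensory receptor by the families counted here.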

How the data were processed

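Chromatin immunoprecipitation with antibodies to CTCF and MBD3 was sequenced with input chromatin. The submitters' processing notes name build mm10, the peak caller MACS2 (2.1.2), the aligner Bowtie2 (2.3.4), bedtools (2.25.0), SAMtools (1.9) and FastQC (0.11.7). The authors deposited 8 peak lists, 1 for each antibody and day, each of 3 pooled replicates, and no list of input was used here. The lists hold the authors' fold enrichment (a ratio), the authors' −log10 p-value and −log10 q-value, and a deposited display score that was not used. Read depth is not given in the lists.

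CTCF peaks on chromosomes 1 to 19 were merged on 1 bp of overlap, and gaps of 300 kb or more were kept (Python 3.11.15, numpy 2.4.6, pandas 2.3.3, scipy 1.17.1, matplotlib 3.10.9). RefSeq genes, promoter windows and microRNAs of GRCm38.p6 were used, and a gene was inside when both its ends lay in 1 stretch. Genes were put in families by symbol. MBD3 counts leave out sites that touch CTCF unless stated. A test on simulated data found 38 of 38 planted gaps. Intervals are exact 95% Clopper-Pearson intervals.

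The named items are the 10 longest stretches, the 5 with most genes, the 3 longest without genes, up to 4 members of a family, the 10 longest genes spanning or ending in a stretch, the 3 MBD3 sites of highest fold a day, the 15 highest found on 2 or more days, and the 3 strongest flanking sites. Other names were chosen after their values were seen. The members and lists were chosen with earlier results of these data known. Alternatives were other gap limits, stricter peaks, left-out days and other ways to place genes.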

Additional observations from a re-analysis of the deposited data

Results flagged for a closer look

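Chromosome X was outside the rule and carries the same signal at a higher level. With the same limit it had 111 stretches that summed to 95.8 Mb, or 58.0% of its span, against 26.6% over chromosomes 1 to 19. It had 8.23 CTCF sites per Mb, and its longest stretch was 5.00 Mb. Inside them lay 245 of its 966 protein-coding genes (25.4%), among them all 8 genes whose symbols begin with Magea, 16 of 33 Rhox genes, which are homeobox genes of the reproductive tract, 18 of 29 Btbd genes and 7 of 8 Samt genes. MBD3 sites off CTCF numbered 30 in them. The number of X chromosomes in these cells is not given in the sources used here, and its part in the lower density was not tested.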

How the results depend on the processing

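Of 66 recomputed values, 53 stayed within 1.5 times the reported count or length, or, for the ratios per Mb, within the counting interval. With gaps of 200 kb or more there were 1996 stretches, a ratio of protein-coding genes per Mb inside over outside of 0.2232 and 419 MBD3 sites overlapping a stretch. With 500 kb there were 484 stretches of 405.9 Mb, a ratio of 0.28 and 150 MBD3 sites. The gene ratio was 0.2781 by gene midpoints, 0.3077 by any overlap, and 0.1083 without chemosensory genes, a choice made after seeing the data. CTCF peaks with a −log10 q of 10 or more gave 509 MBD3 sites, and the same limit on MBD3 peaks gave 78. Without pseudogene sites the ratio of MBD3 sites per Mb inside over outside was 0.257. Over all alternatives the genes inside ran from 1098 (500 kb) to 2323 (CTCF −log10 q of 10 or more), and the MBD3 ratio, apart from the 0.257 above, from 0.2739 to 0.3509 under the same settings. With 1 CTCF list left out there were 1101 to 1184 stretches and 291 to 413 MBD3 sites. No paired analysis was possible because replicates were pooled before peaks were called, so no replicate could be left out either. The stretches are places where no peak was called at an unknown depth, and weaker binding there was not analysed. Assembly gaps and mappability were not analysed here.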

Other observations

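Further tandem families lay in stretches and were picked after their values were seen, so their shares are a description only. All 14 small proline-rich protein genes, which build the outer layer of skin, lay in 1 stretch of chromosome 3, and all 6 Obox genes, homeobox genes of oocytes and early embryos, lay in 1 stretch of chromosome 7. Amylase genes had 6 of 7 inside, Skint genes 9 of 11, interferon-inducible Ifi200 genes 9 of 12 and Pramel genes 30 of 45. Lower shares were found for Nlrp genes with 8 of 18, Pate genes with 5 of 14, Mas-related receptors with 6 of 20 and Slc22 transporters with 5 of 25.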
